A study of Mus musculus with 15 samples.

Results

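Transcripts of Schwann cells, satellite glia and fibroblasts were followed through 6 groups of macrophages sorted from mouse tissues. The set was a list of 33 gene symbols, 16 glial and 17 of fibroblasts and the extracellular matrix. They were looked up in the count table that the authors corrected for DNA contamination. A row was present for 31 of the 33 among the 24084 genes of that table, and 27 of them (12 glial, 15 fibroblast and matrix) were among the 15289 genes with enough counts to be tested. F4/80- and CD45-positive cells came, without culture, from C57BL/6J mice. The titles of all 15 libraries carry the tag ND, which the labels do not spell out, and no other allele or treatment is named. Of the 15 libraries, 3 came from the sympathetic ganglia (SAM ganglia) and 2 from nerve fibers cut out of the subcutaneous depot (SAM fibers). The depot itself gave 2 libraries (sATM), the visceral depot 2 (vATM), the brain 3 (microglia) and the spleen 3 (SpM). SAM below stands for the ganglia and fiber groups together, and fat for both fat groups. The labels give 10 mice as the source of the tissues and do not tie libraries to animals, so p-values reflect how far libraries of a group differ, and that scatter could be technical. Digestion differed by tissue, with collagenase for 30 minutes on fat, brain and spleen, hyaluronidase for 30 minutes and collagenase for 15 on fibers, and collagenase for 10 minutes and trypsin for 30 on ganglia, each at 37 °C.

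Schwann cells ensheathe peripheral axons and satellite glia wrap the cell bodies of neurons in ganglia, both depend on the transcription factor Sox10, and myelinating Schwann cells build their sheath from Mbp, Pmp22 and related proteins. Fibroblasts of nerve sheaths, ganglia and fat lay down fibrillar collagens and the small proteoglycans decorin and lumican, and the cell surface receptor Pdgfra marks them widely. Neither lineage carries CD45, the surface marker that the sort selected for. Several listed genes are also known from other cells. Pmp22, Glul, Fn1 and Gsn are made by macrophages, Apod by fibroblasts as well as Schwann cells, Ncam1, L1cam and Ngfr by sympathetic neurons, and Mbp by the oligodendrocytes of the brain.

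The promoters of 3 glial genes and 2 collagen genes are shown as examples of members whose window holds at least 1 of the motifs searched. Each run is the 250 bases before the start of the RefSeq transcript (build GRCm38.p6), read 5′ to 3′ along the gene. Capitals mark matches, on either strand, to the CCAAT box, to the core promoter motif TATAAA, and to ACAAAG, a form of the core that Sox family factors bind. No 2 of the marked matches overlapped.
Apod promoter, chr16:31314809-31315058 on the minus strand: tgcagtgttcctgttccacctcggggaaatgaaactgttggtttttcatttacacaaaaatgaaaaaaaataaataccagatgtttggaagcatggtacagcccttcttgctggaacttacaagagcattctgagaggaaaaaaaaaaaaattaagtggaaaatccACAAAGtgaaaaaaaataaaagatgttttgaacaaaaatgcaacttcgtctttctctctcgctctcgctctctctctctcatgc
Pmp22 promoter, chr11:63128732-63128981 on the plus strand: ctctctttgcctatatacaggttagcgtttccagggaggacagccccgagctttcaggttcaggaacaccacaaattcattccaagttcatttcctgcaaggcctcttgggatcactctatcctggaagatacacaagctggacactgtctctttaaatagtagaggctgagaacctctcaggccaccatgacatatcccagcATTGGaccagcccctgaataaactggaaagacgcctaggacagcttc
Fabp7 promoter, chr10:57784673-57784922 on the plus strand: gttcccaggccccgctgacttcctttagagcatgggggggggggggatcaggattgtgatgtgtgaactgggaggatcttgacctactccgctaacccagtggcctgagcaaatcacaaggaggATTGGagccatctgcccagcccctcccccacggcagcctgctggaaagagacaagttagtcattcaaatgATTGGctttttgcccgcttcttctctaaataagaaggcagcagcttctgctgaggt
Col1a2 promoter, chr6:4505368-4505617 on the plus strand: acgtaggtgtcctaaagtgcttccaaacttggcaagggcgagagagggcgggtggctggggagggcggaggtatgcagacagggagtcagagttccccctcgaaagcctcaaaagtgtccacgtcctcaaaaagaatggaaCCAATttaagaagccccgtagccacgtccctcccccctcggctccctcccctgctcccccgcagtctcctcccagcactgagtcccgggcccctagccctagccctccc
Col3a1 promoter, chr1:45311288-45311537 on the plus strand: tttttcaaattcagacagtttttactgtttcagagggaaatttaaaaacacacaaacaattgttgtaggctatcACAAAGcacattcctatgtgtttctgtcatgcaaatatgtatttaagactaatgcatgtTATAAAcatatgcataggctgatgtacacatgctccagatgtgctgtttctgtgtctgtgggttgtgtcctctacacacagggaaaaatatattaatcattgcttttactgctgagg
Of 32 members with coordinates, 21 had a RefSeq promoter whose start lay within 1 base of the deposited transcript's start. Among these 21, CCAAT was found in 6 of 10 glial and 2 of 11 fibroblast and matrix promoters. Of all 32851 promoters of the same length, 33.8% held it. TATAAA was found in 0 of 10 glial and 2 of 11 fibroblast and matrix promoters (12.4% of all promoters), and ACAAAG in 1 of 10 and 2 of 11 (16.5% of all). Apod had a single ACAAAG 84 bases before its start, Pmp22 a reverse CCAAT at 47 bases, and Fabp7 reverse CCAATs at 126 and 56 bases. Col1a2 had a CCAAT at 109 bases, and Col3a1 an ACAAAG at 176 and a TATAAA at 117 bases before the start. These matches describe the letters of the windows, and the transcript of a gene used in these cells may start elsewhere.

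Libraries summed to between 2.546 M and 12.52 M corrected counts (M for the prefix mega), and 3 counts, taken as the lowest level that can be told from 0, equalled 0.249 to 0.897 corrected counts per M (CPM, scaled by TMM; the floor covers counting error only). As a measure of background DNA, the 1107 olfactory receptor genes took, per M raw counts, 1170 and 659 gene-body counts in SAM fibers 1 and 2, 49.8 to 821 in ganglia, 31.6 to 300 in fat, 32.6 to 1040 in microglia and 60.3 to 474 in spleen. Fibers therefore had high background DNA as well as high member levels, and its part in the results was not tested. Egr2os had no row under its symbol in any of the 3 tables. Col6a2 was in the authors' RPKM table (reads per kilobase per M), where it stayed at or below 0.932, but not in the corrected counts. Prx, Cdh19, Gfap and Pdgfra had too few counts to be tested. A level in sorted cells as a whole cannot tell a larger number of cells of a type from more RNA per cell.

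**Figure D1:**
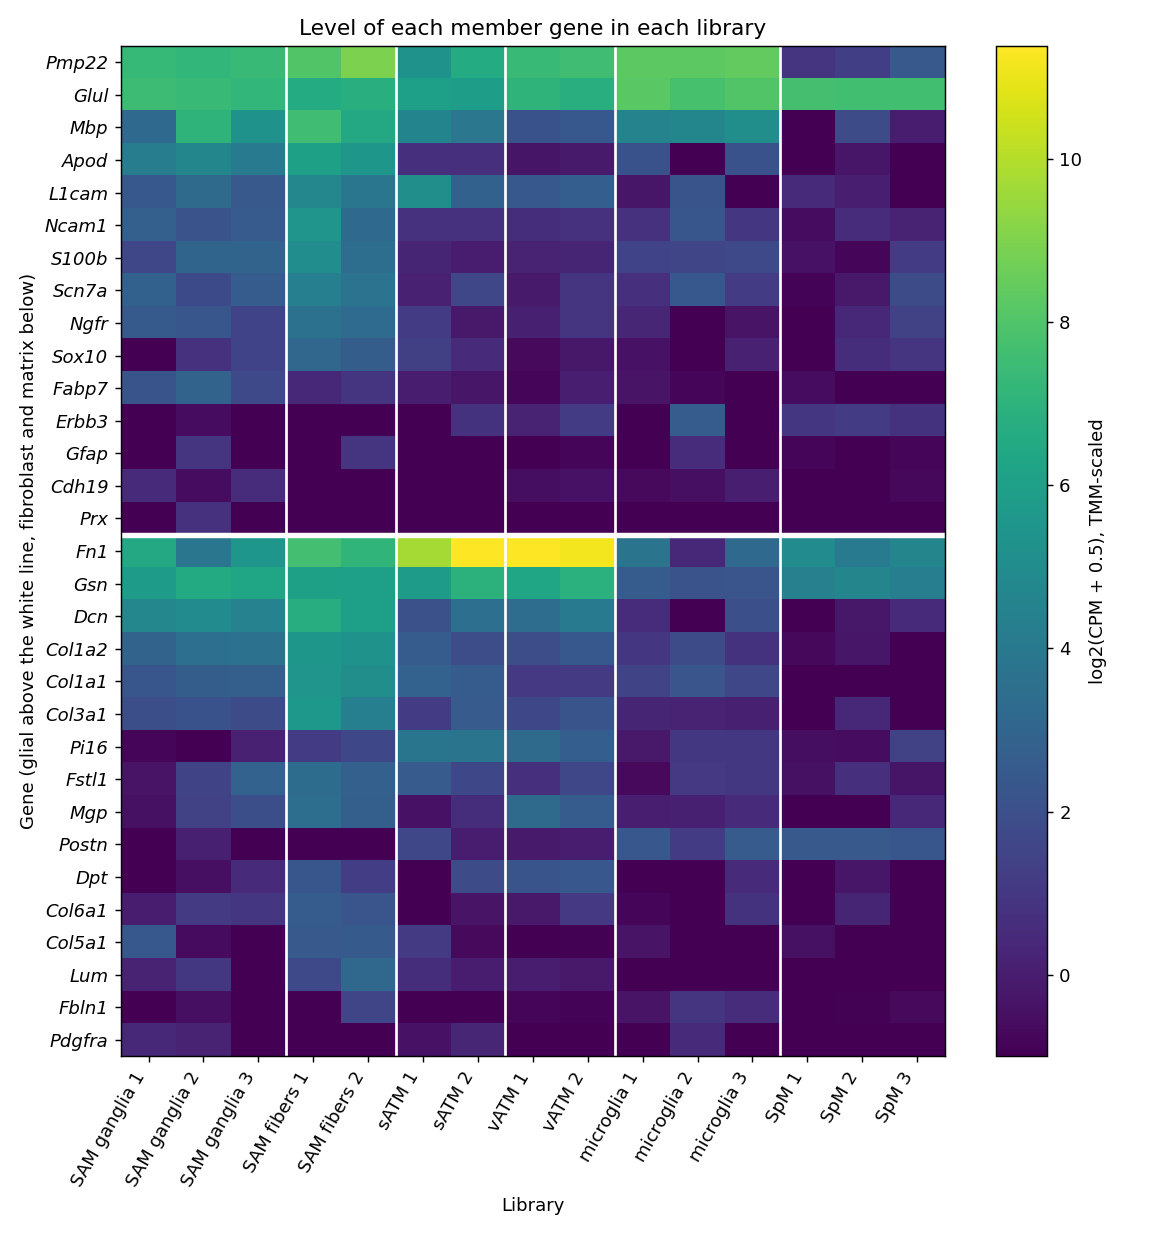
Level of the 31 members with a row in the corrected table (rows, glial above the thick white line, fibroblast and matrix below) in the 15 libraries (columns, grouped by tissue), as log2(CPM + 0.5), TMM-scaled. Pmp22 and Glul among the glial genes and Fn1 and Gsn among the fibroblast and matrix genes were the brightest rows in most groups. Most of the remaining rows were brightest in the 2 SAM fibers columns.

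Of the myelin genes, Mbp, the basic protein that compacts the sheath, had 8.97, 133 and 41.2 CPM in the ganglia libraries, 193 and 87.6 in fibers, 23.2 and 14.5 in sATM and 3.92 and 4.90 in vATM. In the other tissues Mbp had 22.6, 25.3 and 34.7 CPM in microglia and 0, 3.01 and 0.446 in spleen. The ganglia libraries were spread widely, and the lowest of them lay under both sATM libraries and all microglia libraries. Raw gene-body counts of Mbp were 395 to 1886 in ganglia, 2605 and 1388 in fibers, 1616 and 1391 in sATM and 1665 and 1447 in vATM, and with raw counts the fitted difference of SAM against fat was -1.15 (adjusted p = 0.494). The Mbp locus also gives rise to the longer golli transcripts, known from immune cells, which the counts per gene do not separate. Pmp22 (chromosome 11, 63128982 to 63159547), a membrane protein of compact myelin, had 156, 145 and 160 CPM in ganglia, 257 and 484 in fibers, 40.2 and 98.5 in sATM and 169 and 195 in vATM. It had 307, 309 and 340 CPM in microglia and 1.41, 1.92 and 5.07 in spleen. Pmp22 was therefore high in every macrophage group except spleen, and microglia reached the range of the fibers. Periaxin, Prx, which anchors the myelin sheath, was listed at 0 in 14 of 15 libraries and at 9 counts (1.18 CPM) in SAM ganglia 2, with raw gene-body counts of 6 to 447. Prx was thus listed at 0 in both fiber libraries, in which Mbp and Pmp22 were detected.

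Among carriers and cytoplasmic proteins of glia, the lipid carrier Apod (chromosome 16, 31296192 to 31314808) had 17.8, 25.1 and 16.4 CPM in ganglia, 65.8 and 46.1 in fibers, 1.15 and 1.09 in sATM and 0.314 and 0.443 in vATM. It had 3.88, 0 and 3.80 CPM in microglia and 0, 0.340 and 0 in spleen. All 5 SAM libraries stood above the other 10, whose highest value was that of microglia 1. S100b, a calcium-binding protein, had 2.64, 7.50 and 7.18 CPM in ganglia, 33.5 and 10.5 in fibers, and no more than 0.729 in fat, 2.83 in microglia and 1.70 in spleen. SAM ganglia 1 lay within the microglia range for S100b, and the other SAM libraries lay above it. Fabp7, a fatty acid carrier of satellite glia and immature Schwann cells, ran the other way within SAM, with 4.22, 7.21 and 2.81 CPM in ganglia, 0.805 and 1.36 in fibers and at most 0.536 elsewhere. Glutamine synthetase, Glul (chromosome 1, 153899929 to 153909723), used to tell satellite glia, had 177, 166 and 146 CPM in ganglia, 96.5 and 113 in fibers, 63.7 and 61.9 in sATM and 131 and 109 in vATM. Its highest levels were 293, 220 and 262 CPM in microglia, followed by 212, 200 and 201 in spleen, so the gene did not follow the glia-rich tissues of the periphery. The intermediate filament Gfap did not exceed 1.36 CPM in any library. The authors' 2 corrected tables differed for Gfap in SAM fibers 1, with a count of 0 and an RPKM of 5.96.

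Among the factors and receptors of the glial lineage, Sox10 and Ngfr were detected in fibers, and Erbb3 was listed at 0 there. Sox10, the transcription factor of peripheral glia, had 0, 1.22 and 2.33 CPM in ganglia, 7.92 and 5.71 in fibers, 2.04 and 0.944 in sATM, 0.120 and 0.357 in the vATM libraries, 0.260, 0 and 0.602 in microglia and 0, 1.06 and 1.40 in spleen. Both fiber libraries stood above all others, while ganglia overlapped with each of the other groups. Erbb3, the neuregulin receptor of Schwann cells, was listed at 0 in both fiber libraries and at 0, 0.162 and 0 CPM in ganglia, with raw gene-body counts of 461 and 149 in fibers. It had 0 and 1.28 CPM in the sATM and 0.672 and 1.82 in the vATM libraries, 0, 5.56 and 0 in microglia and 1.45, 1.74 and 1.24 in spleen. Erbb3 therefore did not follow Sox10, and a 0 in this table can be a failed estimate. The neurotrophin receptor Ngfr had 5.11, 4.45 and 2.35 CPM in ganglia and 12.2 and 9.5 in fibers, all above the highest library elsewhere (2.22, in spleen). Of the adhesion molecules, Ncam1 (chromosome 9, 49502129 to 49799393) had 6.36, 3.99 and 5.42 CPM in ganglia, 42.8 and 8.92 in fibers, 1.20 and 1.21 in the sATM and 1.06 and 1.19 in the vATM libraries, 1.19, 4.50 and 1.45 in microglia and 0.176, 0.998 and 0.690 in spleen. L1cam had 4.87, 9.25 and 5.02 CPM in ganglia, 25.8 and 14.1 in fibers, 34.0 and 6.68 in the sATM and 4.91 and 6.01 in the vATM libraries, 0.353, 4.11 and 0 in microglia and 0.918, 0.544 and 0 in spleen. For both genes 1 library was far above its partner, SAM fibers 1 for Ncam1 and sATM 1 for L1cam. The summed level of 15 sympathetic neuron genes was also higher in these libraries, at 939 and 405 CPM in SAM fibers 1 and 2 and 86.7 and 31.4 in sATM 1 and 2, and its part in these values was not tested. Cdh19, a cadherin of Schwann cells and their precursors, had 0.868, 0.160 and 1.0 CPM in ganglia, 0 in both fiber and both sATM libraries, 0.193 and 0.257 in vATM, 0.127, 0.202 and 0.532 in microglia and 0, 0 and 0.0913 in spleen. Its raw gene-body counts in fibers were 1461 and 498, which include introns. Scn7a, a sodium channel gene of non-myelinating Schwann cells, had 19.7 and 12.7 CPM in the fiber libraries and no more than 6.60 in any other.

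Among the fibrillar collagens, Col1a1 (chromosome 11, 94936224 to 94953042) had 4.52, 5.76 and 6.13 CPM in ganglia, 43.9 and 34.1 in fibers, 6.85 and 5.66 in the sATM and 1.56 and 1.68 in the vATM libraries, and 2.42, 4.28 and 2.66 in microglia, and was listed at 0 in all 3 spleen libraries (raw counts 0, 57 and 105). Col1a2 (chromosome 6, 4505618 to 4541543), which encodes the partner chain, had 7.16, 11 and 12.4 CPM in ganglia, 46.9 and 40.9 in fibers, 5.52 and 3.31 in the sATM and 3.35 and 4.82 in the vATM libraries, 1.47, 3.17 and 1.25 in microglia and 0.0973, 0.351 and 0 in spleen. Col3a1 (chromosome 1, 45311538 to 45349706), the type III chain, had 3.38, 3.84 and 3.02 CPM in ganglia, 47.6 and 19.8 in fibers, 1.73 and 5.48 in the sATM and 2.75 and 4.16 in the vATM libraries, 0.732, 0.658 and 0.560 in microglia and 0, 0.809 and 0 in spleen. For each of the 3 chains both fiber libraries stood above every other library, and ganglia overlapped with sATM for Col1a1 and Col3a1. Col5a1 and Col6a1, chains of minor fibrils and of beaded filaments, were also highest in fibers, at 5.06 and 5.19 CPM and at 5.61 and 4.26 CPM, and did not exceed 4.79 CPM elsewhere.

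Decorin, Dcn (chromosome 10, 97479500 to 97518163), a proteoglycan that binds collagen fibrils, had 26.1, 30.6 and 21.9 CPM in ganglia, 104 and 64.2 in fibers, 3.75 and 11.1 in the sATM and 10.1 and 15.9 in the vATM libraries, 0.999, 0 and 3.55 in microglia and 0, 0.378 and 0.931 in spleen. Its SAM libraries did not overlap with any other group. Lum, the related proteoglycan lumican, had 2.88 and 8.47 CPM in fibers, at most 1.51 in ganglia and 1.02 in fat, and was listed at 0 in all microglia and spleen libraries. Fibronectin, Fn1 (chromosome 1, 71585473 to 71653234), an adhesive matrix protein, had 88.3, 14 and 45.6 CPM in ganglia, 207 and 139 in fibers, 855 and 2610 in the sATM and 2680 and 2310 in the vATM libraries, 13.2, 0.863 and 8.90 in microglia and 31.0, 16.6 and 24.5 in spleen. Between SAM and fat, the mean level of Fn1 thus ran opposite to that of the type I collagen genes, with its highest levels in fat macrophages. Gsn (gelsolin, an actin-severing protein) had 54.9, 94.2 and 81.3 CPM in ganglia, 64.7 and 64.0 in fibers, 56.7 and 126 in the sATM and 81.0 and 120 in the vATM libraries, 5.64, 4.03 and 4.34 in microglia and 20.5, 24.2 and 19.2 in spleen. SAM and fat overlapped for Gsn, and spleen and microglia each lay below them. Mgp, an inhibitor of calcification, was at 10.8 and 6.17 CPM in fibers and 9.13 and 5.62 in vATM, against at most 3.37 in every other library.

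Pi16, known from a fibroblast population of many tissues, had 0.0882, 0 and 0.591 CPM in ganglia, 1.71 and 2.73 in fibers, 13.8 and 13.0 in the sATM and 9.08 and 5.95 in the vATM libraries, 0.406, 1.54 and 1.49 in microglia and 0.198, 0.157 and 2.25 in spleen. It was the other member, beside Fn1, with every fat library above every library of the other tissues. Pdgfra, the receptor used to mark fibroblasts, had 0.847, 0.668 and 0 CPM in ganglia, 0.256 and 0.776 in sATM and 0.0147, 0.898 and 0 in microglia, and was listed at 0 in all fiber, vATM and spleen libraries. Its raw gene-body counts in fibers were 812 and 375, so the corrected 0 stood beside reads over the gene body that include introns. The matricellular gene Postn was listed at 0 in both fiber libraries and was highest in microglia (4.64, 1.76 and 5.42 CPM) and spleen (4.94, 4.99 and 4.48). Fbln1, Dpt and Fstl1, matrix or secreted glycoproteins, stayed at or below 2.47, 4.56 and 9.95 CPM in every library.

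**Figure D2:**
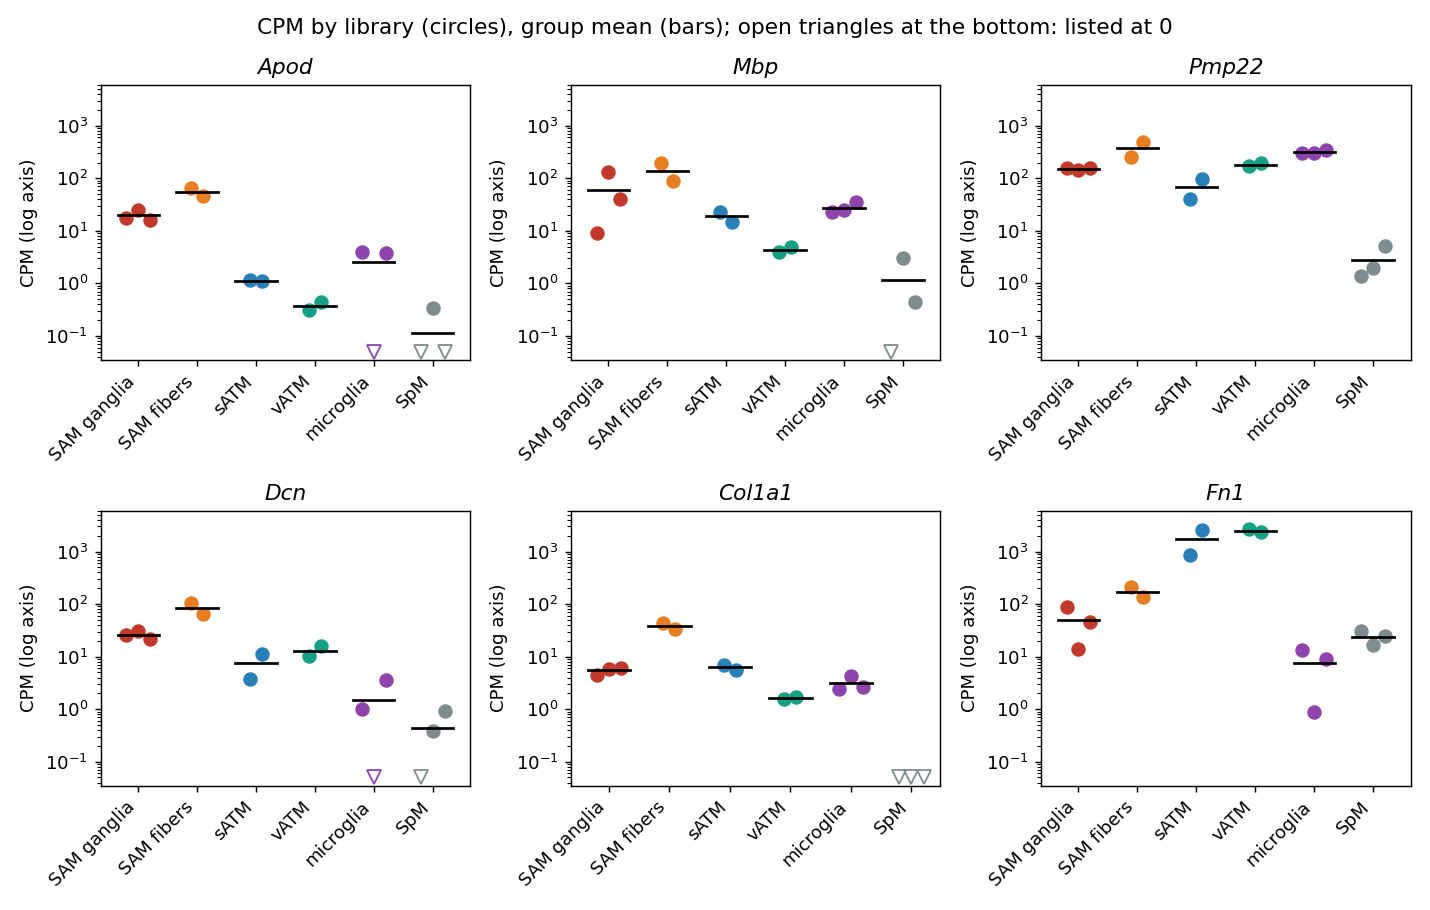
CPM (log axis) by group for 3 glial (upper row) and 3 fibroblast and matrix members (lower row), with circles for libraries, bars for group means and open triangles for libraries listed at 0. Apod, Mbp, Dcn and Col1a1 had their highest group mean in fibers, Pmp22 was as high in microglia, and Fn1 peaked in fat.

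Levels of different genes were summed as RPKM, which divides by gene length, to compare both lists within a library. The ratio of the glial sum to the fibroblast and matrix sum was 3.33, 3.40 and 2.80 in ganglia, 2.01 and 3.29 in fibers, 0.433 and 0.212 in the sATM and 0.353 and 0.410 in the vATM libraries, 35.4, 37.2 and 26.6 in microglia and 5.65, 5.24 and 5.07 in spleen. These ratios were set by few genes. Pmp22 and Glul made up 52.5% to 98.7% of the glial members' summed RPKM. Fn1 and Gsn made up 24.7% to 95.1% of that of the fibroblast and matrix members. Leaving out these 4 genes, a choice made after their values were seen, the glial members summed to 20.7, 68.8 and 44.7 RPKM in ganglia, 131 and 85.9 in fibers, 16.7 and 10.1 in the sATM and 2.52 and 5.29 in the vATM libraries, 13.3, 22.5 and 22.0 in microglia and 1.08, 3.11 and 3.69 in spleen. The fibroblast and matrix members without them summed to 16, 21.9 and 31.0 RPKM in ganglia, 93.8 and 81.4 in fibers, 12.8 and 20.6 in the sATM and 19.9 and 24.9 in the vATM libraries, 4.14, 7.45 and 10.2 in microglia and 1.85, 3.17 and 5.20 in spleen. Both sums were highest in fibers and did not overlap there with any other group. The glial sum exceeded the fibroblast and matrix sum in all SAM and all microglia libraries (ratios of 1.06 to 3.21). It was the smaller in both vATM (0.127 and 0.212) and all spleen libraries (0.584 to 0.981), while sATM held a library of each kind (1.30 and 0.490). These ratios also depended on few genes. Mbp alone averaged 21.7 RPKM in ganglia, 50.7 in fibers and 13.2 in microglia. Mean glial sums there were 44.7, 108 and 19.3 RPKM, beside fibroblast and matrix sums of 23.0, 87.6 and 7.26. With Mbp taken off these means, the glial sum lies below the fibroblast and matrix sum in fibers and microglia, and level with it in ganglia. The excess of the mean glial sum in these groups therefore rested on Mbp. Ratios by library without Mbp were not taken.

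**Figure D3:**
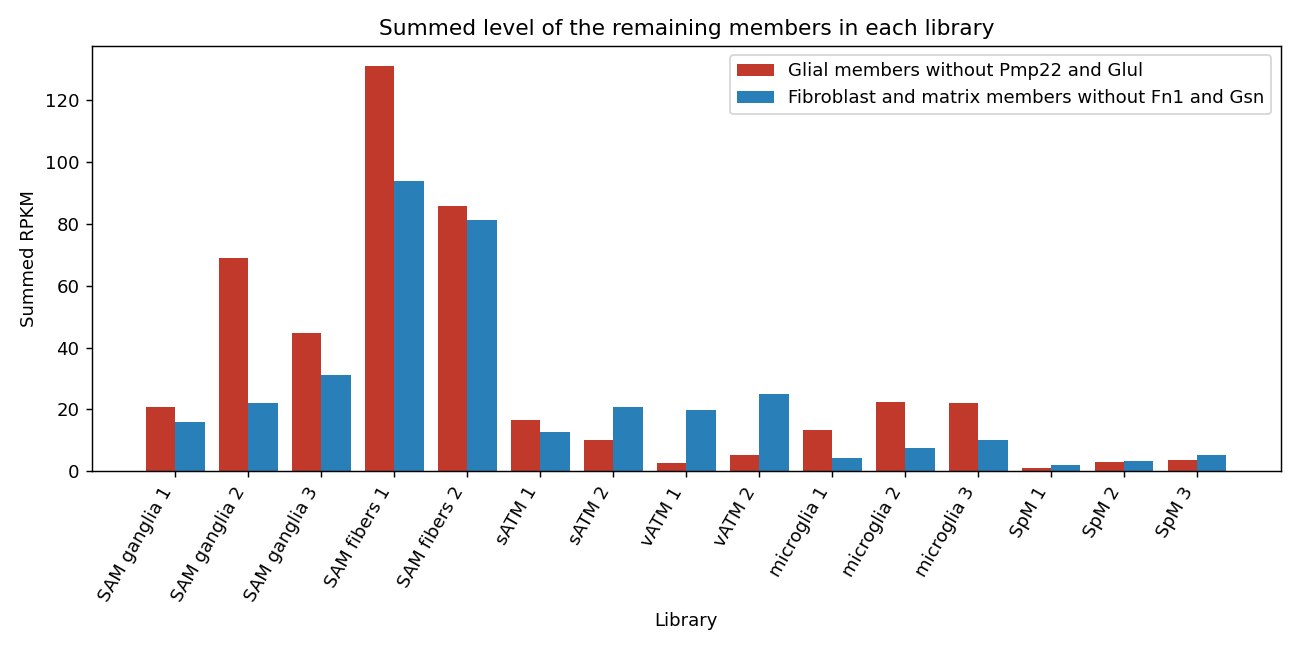
Summed RPKM per library of the glial members without Pmp22 and Glul (red) and of the fibroblast and matrix members without Fn1 and Gsn (blue). Fibers had the tallest bars of both kinds (131 and 85.9 RPKM, and 93.8 and 81.4 RPKM), and in vATM the blue bars (19.9 and 24.9 RPKM) stood above the red ones (2.52 and 5.29 RPKM).

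SAM was then set against the macrophages of fat, the tissue from which the fibers were dissected. Apod, S100b, Ncam1 and Mbp were higher in SAM, as were Col1a1, Col1a2 and Dcn, while Fn1 and Pi16 were lower. Over all genes tested, 2.98% were called higher and 3.49% lower, a call being an adjusted p below 0.05 (edgeR's quasi-likelihood test with Benjamini-Hochberg adjustment) with a log2 difference of at least 1 in size. Of 12 glial members 4 were called higher and 0 lower, and of 15 fibroblast and matrix members 3 were called higher and 2 lower. The median log2 difference was 2.76 over the glial members and 1.58 over the fibroblast and matrix members (1.40 with genes listed at 0 on a side set to their bound), beside 0.01 over all genes. With another scaling (RLE) the median of all genes was 0.18 and the higher share of all called genes was 60.9%, against 46.1% with TMM. Without SAM fibers 2, 2965 genes were called over all, 21.3% of them higher, against 989 with every library.

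Apod averaged 37.9 CPM in SAM and 0.748 in fat (log2 difference 5.61 ± 0.74 SE, adjusted p = 0.000291). S100b averaged 13.9 CPM in SAM and 0.650 in fat (4.07 ± 0.80, adjusted p = 0.00577). All 5 SAM libraries stood above all 4 fat libraries for both genes, and for Ncam1 too (15.6 CPM in SAM and 1.16 in fat, 3.25 ± 0.69, adjusted p = 0.00951). Mbp averaged 101 CPM in SAM and 11.6 in fat (3.35 ± 0.75, adjusted p = 0.0129), with overlap because of SAM ganglia 1. Ngfr, Scn7a, Fabp7 and Sox10 had fitted differences of 2.20 to 2.87 but did not pass (adjusted p = 0.0991 to 0.307). L1cam was at 13.2 CPM in SAM and 12.9 in fat (0.10 ± 0.80).

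On the matrix side, Col1a1 averaged 22.2 CPM in SAM and 3.94 in fat (2.19 ± 0.40, adjusted p = 0.00518). SAM and fat libraries overlapped for Col1a1, with means of 5.47 CPM in ganglia, 39.0 in fibers, 6.26 in sATM and 1.62 in vATM. Col1a2 averaged 27.0 CPM in SAM and 4.25 in fat (2.32 ± 0.46, adjusted p = 0.00614) and Dcn 55.2 and 10.2 CPM (2.24 ± 0.59, adjusted p = 0.0318). Fn1 averaged 111 CPM in SAM and 2110 in fat, a log2 difference of -4.50 ± 0.60 (adjusted p = 0.000305), and every SAM library lay below every fat library. Pi16 averaged 1.22 CPM in SAM and 10.5 in fat and was called lower as well. The called members of this list thus lay in both directions, with type I collagen and decorin on 1 side and fibronectin and Pi16 on the other.

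Apod and Fn1 stayed called without any single library. Mbp missed the threshold without any 1 of the 4 fat libraries (adjusted p = 0.0547 to 0.0978), Ncam1 without any of them or SAM fibers 1 (0.0523 to 0.110), and S100b without sATM 2, vATM 1 or vATM 2 (0.0526 to 0.0650). The count of glial calls was 2 without sATM 1 and 1 without sATM 2, vATM 1 or vATM 2. That of fibroblast and matrix calls was 3 without SAM ganglia 1, SAM fibers 1 or sATM 1, 2 without sATM 2 and 1 without vATM 1 or vATM 2. Col1a1 missed the threshold without vATM 1 or vATM 2 (0.0871 and 0.0639), Col1a2 without sATM 2, vATM 1 or vATM 2 (0.0592, 0.0879 and 0.0514), and Dcn without any of 8 libraries (0.0522 to 0.237).

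Across all 15 libraries, 3 of 12 glial members (25.0%; Apod, Fabp7, Ngfr) and 2 of 15 fibroblast and matrix members (13.3%; Col1a2, Dcn) had every SAM library above every other library, beside 0.811% of all genes tested. Both fiber libraries stood above all others for 6 of 12 glial (50%) and 7 of 15 fibroblast and matrix members (46.7%), beside 6.93% of all genes. The 6 glial genes were Apod, Ncam1, S100b, Sox10, Ngfr and Scn7a, and the 7 others were Col1a1, Col1a2, Col3a1, Col5a1, Col6a1, Dcn and Lum. These shares leave out the members with too few counts, among them Prx, Cdh19 and Pdgfra, which were listed at 0 in both fiber libraries. A gene can also pass the filter on low counts through the group in which it is high. Lum and Col6a1 had at most 1.51 and 1.65 CPM outside fibers, so these shares are a description and no test. Background DNA was highest in SAM fibers 1, at 18 raw olfactory receptor counts per kilobase. Only 6 of 15 glial and 7 of 16 fibroblast and matrix members exceeded that density there, and its part in this ordering was not tested.

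**Figure D4:**
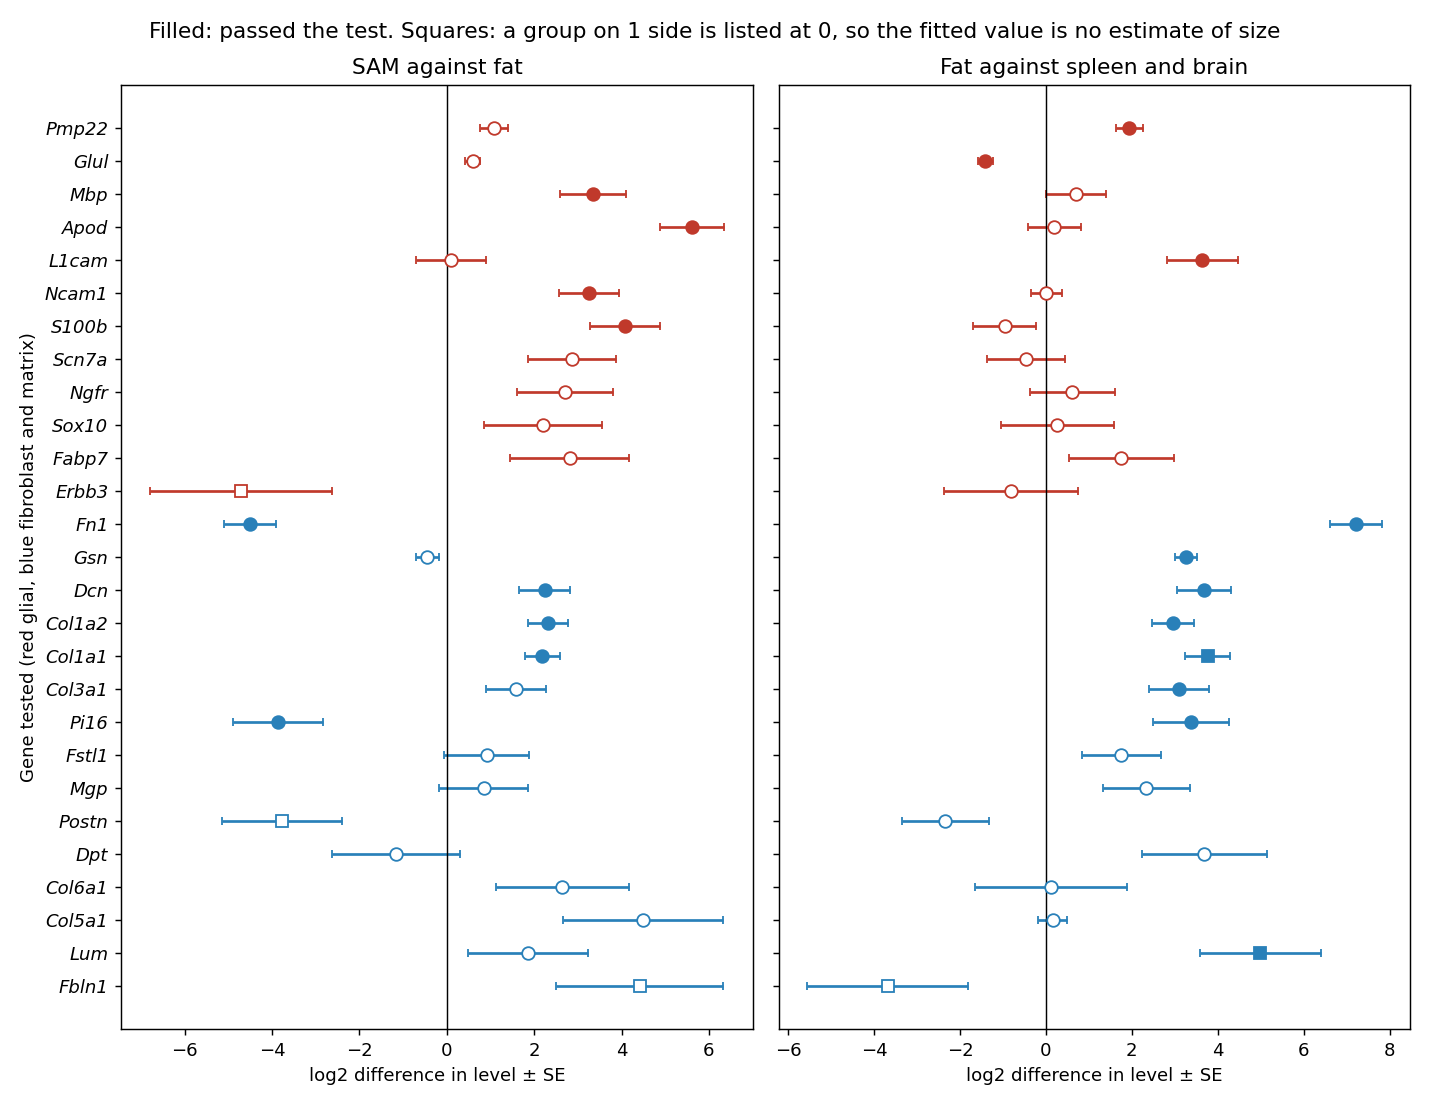
Fitted log2 difference ± SE of each tested member (glial in red, fibroblast and matrix in blue) for SAM against fat (left) and fat against spleen and brain (right), with filled symbols for members that passed the test. Squares mark members listed at 0 in a group, whose fitted value is no estimate of size. Fn1 and Pi16 are the only filled symbols left of 0 in the left panel. In the right panel they are among the 8 fibroblast and matrix and 2 glial members filled right of 0.

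Fibers and sATM come from the same fat depot, and their comparison asks how macrophages on the nerve differ from those beside it. Apod, Pmp22, S100b and Ncam1 were higher in fibers, as were Col1a2, Col1a1 and Dcn, and Fn1 was lower. Of all genes 1.85% were called higher and 2.99% lower. Of 12 glial members 4 were higher and 0 lower, and of 15 fibroblast and matrix members 3 were higher and 1 lower, with median log2 differences of 2.66 and 2.64 (2.46 at the bound), beside 0.00 over all genes. With RLE the median of all genes was 0.28 and the higher share of called genes 57.1%, against 38.2% with TMM. Without SAM fibers 2, 2979 genes were called over all, 15.6% of them higher, against 740 with every library.

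Apod averaged 55.9 CPM in fibers and 1.12 in sATM (5.74 ± 1.05, adjusted p = 0.00627). Pmp22 averaged 371 CPM in fibers and 69.4 in sATM (2.41 ± 0.49, adjusted p = 0.0118). S100b averaged 22.0 and 0.604 CPM (5.18 ± 1.20, adjusted p = 0.0237) and Ncam1 25.9 and 1.21 CPM (4.33 ± 1.04, adjusted p = 0.0281) in fibers and sATM. None of the 4 overlapped between these groups. Mbp, at 140 CPM in fibers and 18.9 in sATM, did not pass (2.91 ± 1.05, adjusted p = 0.130). Col1a2 averaged 43.9 CPM in fibers and 4.41 in sATM (3.31 ± 0.69, adjusted p = 0.0130), and Col1a1 39.0 and 6.26 CPM (2.64 ± 0.58, adjusted p = 0.0217). Dcn averaged 84.2 CPM in fibers and 7.42 in sATM (3.46 ± 0.90, adjusted p = 0.0403). Fn1 averaged 173 CPM in fibers and 1730 in sATM (-3.33 ± 0.84, adjusted p = 0.0355), so that the collagen and decorin genes were higher in fibers in the same libraries in which fibronectin was lower.

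These calls rest on pairs of libraries. The glial count was 2 without SAM fibers 1, vATM 1 or vATM 2, 1 without sATM 2 and 0 without sATM 1, and the fibroblast and matrix count was 2 without vATM 1 or vATM 2, 1 without SAM fibers 1 or sATM 1 and 0 without sATM 2. Without sATM 1, Pmp22 was at 1.68 (adjusted p = 0.190), and without SAM fibers 1, Ncam1 was at 2.73 (0.341). Over the 25 alternatives the call was lost in 13 for Dcn, in 9 for Col1a1, in 9 for Fn1 (RLE scaling among them, -2.99, 0.0505), in 8 each for S100b and Ncam1, in 5 for Pmp22 and in 4 each for Apod and Col1a2. The corrected counts of members per kilobase were also set against the raw density of the olfactory receptor genes in the same library (18 per kilobase in SAM fibers 1, 5.51 in SAM fibers 2). Mbp was 14.2 and 30.3 times that density in SAM fibers 1 and 2, Dcn 10.3 and 29.8 times and Apod 5.91 and 19.5 times. Col1a1 was at 1.38 and 5.05 times, S100b at 3.75 and 5.55 times, Ncam1 at 1.14 and 1.12 times and Sox10 at 0.542 and 1.84 times. In SAM fibers 1, 6 of 15 glial and 7 of 16 fibroblast and matrix members exceeded the density, and in SAM fibers 2 it was 11 of each. The members thus differed widely by this measure, with Ncam1 close to 1 in both fiber libraries and Sox10 below 1 in SAM fibers 1. It sets corrected counts against a raw density, and the part of DNA in these levels was not tested.

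Ganglia were set against fibers, the other site of nerve-associated macrophages. Both type I collagen genes were lower in ganglia, and no glial member passed. Of all genes 2.85% were called higher and 1.27% lower. Of 12 glial members 0 passed in either direction (1 higher and 3 lower at an unadjusted p below 0.05 in edgeR, and 2 lower in DESeq2), with a median log2 difference of -1.47 (-1.56 at the bound). Of 15 fibroblast and matrix members 2 were lower, with a median of -2.10, beside 0.00 over all genes. With RLE the median of all genes was -0.25 and the higher share of called genes 50.3%, against 69.2% with TMM. Without SAM fibers 2, 2737 genes were called over all, 90.2% of them higher, against 629 with every library. Col1a1 averaged 5.47 CPM in ganglia and 39.0 in fibers (-2.82 ± 0.51, adjusted p = 0.00764), and Col1a2 10.2 and 43.9 CPM (-2.10 ± 0.57, adjusted p = 0.0491). Col3a1, at 3.42 CPM in ganglia and 33.7 in fibers, lay just outside (-3.28 ± 0.90, adjusted p = 0.0524). Fabp7 (4.74 CPM in ganglia, 1.08 in fibers) and Glul (163 and 105 CPM) were the tested glial members with a higher level in every ganglia library than in either fiber library, and neither passed (adjusted p = 0.521 and 0.155). The call of Col1a1 was lost without SAM fibers 1 (adjusted p = 0.0530) and that of Col1a2 in 18 of 25 alternatives, among them the replicate block (0.0952), while the count of fibroblast and matrix calls was 0 without SAM fibers 1 and 1 without any of 9 other libraries. Without SAM fibers 2, 1 glial member was called. The summed level of 10 adipocyte genes was 5.74 to 36.8 CPM in ganglia and 105 and 60.2 in fibers, and the median log2 difference of the 8 tested was -2.64, with 0 called; its part in the collagen values was not tested.

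Between subcutaneous and visceral fat, sATM against vATM, no member passed, beside 0.0196% of all genes called higher and 0.0196% lower. Of the 12 glial members 0 were higher and 2 lower at an unadjusted p below 0.05, namely Pmp22 (69.4 CPM in sATM, 182 in vATM) and Glul (62.8 and 120 CPM). Of the 15 fibroblast and matrix members 1 was higher by that measure, Col1a1 (6.26 CPM in sATM, 1.62 in vATM). Median log2 differences were 0.44 over the glial and 0.11 over the fibroblast and matrix members, beside -0.04 over all genes. DESeq2 called 0 members of either list, and no member was called when any single library was left out. Mbp averaged 18.9 CPM in sATM and 4.41 in vATM without overlap, and Mgp 0.653 and 7.38 CPM, and neither passed (adjusted p = 1.0 for each). The summed level of the sympathetic neuron genes was 86.7 and 31.4 CPM in sATM and 15.6 and 6.34 in vATM, whose part in the glial values was not tested.

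Fat macrophages were set against those of spleen and brain next. Of 15 fibroblast and matrix members 8 were higher and 0 lower in fat, beside 7.61% and 4.83% of all genes, and of 12 glial members 2 were higher and 1 lower. The median log2 difference was 3.10 over the fibroblast and matrix members (2.45 at the bound) and 0.23 over the glial members, beside -0.21 over all genes. Fn1 averaged 2110 CPM in fat and 15.8 in spleen and brain (7.22 ± 0.60, adjusted p = 3.71e-07), and Gsn 96.1 and 13.0 CPM (3.26 ± 0.26, adjusted p = 2.38e-07). Col1a2 averaged 4.25 CPM in fat and 1.06 in spleen and brain (2.96 ± 0.48, adjusted p = 0.000391). Col1a1 passed too, for which no fold is given because spleen was listed at 0, and fat and microglia overlapped for that gene. Dcn, Col3a1, Pi16 and Lum were the other members called higher. The adipocyte genes summed to 49.0 to 90.4 CPM in fat, 8.47 to 18 in microglia and 4.96 to 15.4 in spleen, beside the 105 and 60.2 CPM in fibers, and their part in the matrix values was not tested.

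Of the glial genes, Glul averaged 91.3 CPM in fat and 231 in spleen and brain (-1.41 ± 0.18, adjusted p = 2.81e-05). L1cam averaged 12.9 CPM in fat and 0.988 in spleen and brain (3.64 ± 0.83, adjusted p = 0.00586), and kept its call in all 25 alternatives. Pmp22 was called higher in fat by the mean of logs (1.94 ± 0.31, adjusted p = 0.000347), although its plain mean was 126 CPM in fat and 161 in spleen and brain. Each microglia library exceeded every fat library for Pmp22, and the spleen libraries were near 0. Without sATM 2 the count of fibroblast and matrix calls was 5, and the glial count was 3 without any single library.

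Microglia were last set against spleen macrophages. Pmp22 averaged 319 CPM in microglia and 2.80 in spleen (6.88 ± 0.51, adjusted p = 1.57e-07). Mbp averaged 27.5 CPM in microglia and 1.15 in spleen (4.59 ± 0.99, adjusted p = 0.00456), and Apod 2.56 and 0.113 CPM (4.44 ± 1.01, adjusted p = 0.00671). The libraries of both groups were apart for Pmp22 and Mbp, and overlapped for Apod, which was listed at 0 in microglia 2. Of 12 glial members 3 were higher and 0 lower, and of 15 fibroblast and matrix members 2 were higher and 1 lower, beside 5.31% and 5.80% of all genes. Medians were 1.17 and 0.83 (1.02 at the bound), beside 0.21 over all genes. Col1a2 averaged 1.97 CPM in microglia and 0.149 in spleen (3.52 ± 0.73, adjusted p = 0.00323), Gsn 4.67 and 21.3 CPM (-2.17 ± 0.35, adjusted p = 0.000329), and Col1a1 3.12 CPM in microglia with spleen listed at 0. In microglia 2, where DNA background was high, 3 of 15 glial and 0 of 16 fibroblast and matrix members exceeded the olfactory receptor density.

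Further genes of the same cell types were taken from lists of textbook markers. Of 18 further tested Schwann cell and satellite glia genes, 3 were higher and 0 lower in SAM against fat, and 4 higher and 0 lower in fibers against sATM. Over all genes, 2.98% were called higher and 3.49% lower in SAM against fat, and 1.85% and 2.99% in fibers against sATM. The glutamate transporter Slc1a3 averaged 4.85 CPM in SAM and 0.372 in fat (3.28 ± 0.54, adjusted p = 0.00168), and was as high as 95.1 CPM in microglia and 92.0 in spleen. Egr2, a transcription factor of myelination that macrophages also make, averaged 454 CPM in fibers and 42.4 in sATM (3.40 ± 0.62, adjusted p = 0.00625). Against fibers, ganglia averaged 49.4 CPM of Egr2 (-3.20 ± 0.53, adjusted p = 0.00295). Slc1a3 was thus higher in SAM than in fat but highest outside both.

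Of 20 further tested fibroblast and matrix genes, 5 were higher and 1 lower in SAM against fat, and 2 were higher and 0 lower in fibers against sATM, to be read against the same shares. Serpinf1, a secreted serpin, averaged 89.2 CPM in SAM and 23.1 in fat (2.14 ± 0.33, adjusted p = 0.000985), and Col15a1, a collagen of basement membrane zones, 5.96 and 0.382 CPM (4.03 ± 0.72, adjusted p = 0.00300). Both were also high in microglia (59.2 and 15.3 CPM). Of 9 enzymes that process collagen, 0 were higher and 1 was lower in SAM against fat, Colgalt1, which glycosylates collagen (78.7 CPM in SAM and 179 in fat, -1.25 ± 0.21, adjusted p = 0.00181). Sympathetic neuron genes were higher in SAM against fat for 11 of 14 tested, beside 2.98% of all genes. Their summed level was 211, 138 and 196 CPM in ganglia, 939 and 405 in fibers, 6.34 to 86.7 in fat, 30.2 to 42.6 in microglia and 6.07 to 8.78 in spleen. The sum of 10 macrophage genes was 13300 to 18800 CPM in ganglia, 10500 and 10800 in fibers, 11100 to 16200 in fat, 13400 to 17500 in microglia and 11400 to 14400 in spleen.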

How the data were processed

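RNA of F4/80- and CD45-positive cells was measured by low-input RNA-seq in 15 libraries of 6 groups. Per the submitters' processing notes, STAR and HOMER were used with mm10; their settings and any use of strand are not given. The authors deposited an estimated count per gene, from which DNA contamination had been removed per the table's name (24084 genes, 45.29% of values whole), RPKM values with the same removal (24414 genes), and raw counts over gene bodies (24525 genes). Groups came from the titles.

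After rounding to integers, the corrected counts were tested in R 4.3.3 with edgeR 4.0.16, using filterByExpr with a minimum count of 10, TMM factors of 0.668 to 1.40, and 1 mean per group over all 15 libraries (common biological coefficient of variation 0.68). Correlations of log2 CPM within groups were 0.605 to 0.959. No 2 libraries held identical values. Contrasts between pooled groups weight the groups equally on the log scale. P-values were adjusted by Benjamini and Hochberg over 15289 genes. Several comparisons share libraries. Log2 differences are the group named first minus the second ± SE of the fit, and CPM are TMM-scaled. Because a listed 0 may be a failed estimate, no fold is given for a gene listed at 0 in a group; medians at the bound set such genes to 3 counts over the group. The same fit was also run on simulated counts in which 200 genes were changed in fibers. Those counts held no background DNA and no failed estimates, so that run cannot show how the fit handles either. Alternatives were RLE scaling, no filter, raw counts, a replicate block, DESeq2 1.42.0, limma 3.58.1 on log2(RPKM + 0.1) and log2(RPKM + 1) with a minimum mean RPKM of 0.1 or none, only the groups compared, each library left out, and, chosen after seeing the data, the 3 libraries with most background DNA left out.

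The members, lists, comparisons and tests were chosen with earlier results of these data known. Values by library are given for the 6 members of each list with the highest mean CPM and for 7 members that define a cell type; other members, given by range or by library, complete the account. Fold changes are given for up to 4 called members per list and comparison, those with the smallest p, and values that missed the threshold were added after they were seen. Pmp22, Ncam1, Erbb3, Glul and Pdgfra overlap a microRNA or predicted gene, whose reads may not be separable. Promoter sequences are from RefSeq (GRCm38.p6). Some genes of the lists are not reported here.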

Additional observations from a re-analysis of the deposited data

How the results depend on the processing

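Of 31 named calls, 5 were kept under all alternatives run (L1cam, Gsn and Fn1 in fat against spleen and brain, Pmp22 in microglia against spleen, and Fn1 in SAM against fat). Over all named calls and 25 alternatives (1 of which gave no value for Apod in microglia against spleen), 636 calls were kept, 137 were lost and 1 reversed. The reversal was Mbp in SAM against fat, at -1.15 with raw gene-body counts (adjusted p = 0.494). Of the list medians, 289 moved by less than their margin and 11 by more. The cause of the changes below was not tested, except that fewer samples enter where libraries or groups were left out.

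With raw gene-body counts, glial calls were 0 in SAM against fat, 0 in fibers against sATM and 1 in microglia against spleen, and fibroblast and matrix calls were 1 and 0 in the first 2 of these, 0 in ganglia against fibers, 3 in fat against spleen and brain and 0 in microglia against spleen. With DESeq2, glial calls were 8 in SAM against fat and 2 in ganglia against fibers. With log2(RPKM + 1), glial calls were 7 in fibers against sATM and 2 in ganglia against fibers, and fibroblast and matrix calls 8 and 4 there and 1 in microglia against spleen. With only the groups compared, glial calls were 0 in fibers against sATM, and fibroblast and matrix calls were 0 there and 0 in ganglia against fibers. Without the 3 libraries with most background DNA (SAM fibers 1, microglia 2, SAM ganglia 3), glial calls were 2 in fibers against sATM and fibroblast and matrix calls 1 in ganglia against fibers.

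With each library left out in turn, glial calls ranged over 1 to 6 in SAM against fat, 0 to 5 in fibers against sATM, 0 to 1 in ganglia against fibers, 0 to 0 in sATM against vATM, 3 to 3 in fat against spleen and brain and 3 to 4 in microglia against spleen. Fibroblast and matrix calls ranged over 1 to 5, 0 to 4, 0 to 3, 0 to 0, 5 to 8 and 3 to 4 in the same order. A library left alone in its group is assumed to vary like the other groups.

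Over all libraries, the replicate numbers were not shown to pair them. Over 33 pairs with the same number the correlation of deviations from the group mean was -0.381 to 0.639 (median 0.0951), beside a median of -0.0689 over 60 other pairs, and 8 of 15 libraries correlated best with their own number. The replicate 1 libraries of ganglia, sATM, vATM, microglia and spleen all correlated positively with each other (0.18 to 0.639). SAM fibers 1 correlated negatively with each of them (-0.107 to -0.381). Each positively correlated library had the lowest background DNA of its group (31.6 to 98.0 olfactory receptor counts per M), whereas SAM fibers 1 had 1170. The part of this shared pattern in the comparisons was not tested. With the replicate block, glial calls were 5 in SAM against fat and 4, 0, 0, 3 and 3 in the other comparisons, and fibroblast and matrix calls 5, 4, 2, 0, 8 and 3; of the named calls Col1a2 in ganglia against fibers alone missed the threshold (0.0952).

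Over all genes, 989, 740, 629, 6, 1901 and 1699 were called in the 6 comparisons in the order above, and raw counts gave 44, 0, 0, 0, 550 and 302. DESeq2 called 1736, 1730, 1422 and 113 in the first 4 comparisons, log2(RPKM + 1) called 1271 in fibers against sATM and 1158 in ganglia against fibers, and log2(RPKM + 0.1) called 601 in SAM against fat (654 with no filter). With only the groups compared, 558, 0, 32 and 0 were called in the first 4. In sATM against vATM, all settings called 0 to 113. Leaving out SAM fibers 2 gave 2965, 2979 and 2737 in the first 3 comparisons. Other single libraries left out moved these counts downward by over 1.5 times, to as few as 379 in SAM against fat (without vATM 2; 404 without vATM 1 and 547 without sATM 2), 266 in fibers against sATM (without sATM 2; 372 to 471 without SAM fibers 1, sATM 1, vATM 1 or vATM 2) and 346 in ganglia against fibers (without SAM ganglia 2; 370 and 374 without vATM 1 and vATM 2).

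Prx, Cdh19, Gfap and Pdgfra reached 3 corrected counts in 1, 3, 3 and 4 of 15 libraries, too few to be tested. Their raw gene-body counts summed to 574, 1959, 264 and 1187 over the fiber libraries, and the parts of depth and of the authors' DNA correction in these low counts were not tested.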
